A study of Canis lupus familiaris with 109 samples.

Results

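CpGs whose cytosines on both DNA strands were listed with a methylation fraction were described in whole blood of domestic dogs. A CpG was a member where position p of the main table was a first-strand cytosine and position p + 1, also listed, a second-strand cytosine. Strand was inferred from coordinates alone, without reading sequence or methylation values. In the larger repeat table, runs of consecutive positions of even length were read as CpGs in which the first position is the first strand and the next the second. This gave 24854 member CpGs, which hold 49708 of the 304191 positions of the main table (16.3%). A further 108467 CpGs were listed on the first strand only and 106936 on the second strand only. Of 27479 adjacent listed pairs, 2625 were not members. In 1647 of these the second strand of a CpG was followed by the first strand of the next CpG, and in 978 a position had no strand.

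A CpG reads the same on both strands, so that its 2 cytosines face each other. During DNA replication the new strand starts unmethylated, and the maintenance methyltransferase DNMT1, guided by UHRF1, copies the mark from the parental strand. Fractions on the strands are therefore usually close, while bisulfite treatment makes the strands non-complementary and each strand is read from its own molecules.

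The labels list 109 blood samples, from animals aged 0.134 to 15.5 years, and record no treatment. DNA was bisulfite converted and captured with the Roche SeqCap Epi protocol. Of these samples, 94 belong to the main table, with ages from 0.134 to 14.5 years, 6 to a second capture, 1 to the first capture that serves the same repeat, and 8 were set aside for low coverage. No label matches the codes that name the rows, so the 95 libraries of the main table and the 7 of the repeat table stand in no group by age or sex, and no test over libraries was made. The main table holds 1 library more than the 94 samples labelled for it, so that an animal may be counted in more than 1 library. Whole blood is a mixture of cell types, whose shares were not measured. Depth is unknown because fractions came without read counts, and CpGs are not replicates of one another.

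In the values below, a difference is the first strand minus the second strand on the fraction scale of 0 to 1. The signed difference of a CpG is its median over the 95 libraries. Its distance is the median over libraries of the absolute difference, and its level is the median of the mean of both strands.

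The strands lay close to each other, and neither was the higher at most CpGs. The first strand had a median level of 0.03 with quartiles of 0 and 0.86, and the second strand had the same median and quartiles. The signed difference was 0 at 17337 members (69.8%), above 0 at 3911 and below 0 at 3606. Its median over members was 0, and the mean over all members and libraries was 0.000486. It lay between -0.19 and 0.14. The median distance within a library was 0.03. Averaged over all members, the difference was above 0 in 67 libraries and below 0 in 28, with a median of 0.000429.

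A signed difference of at least 0.1 in either direction was rare, at 34 of 24854 CpGs (0.137%). The first strand was higher at 18 of them (0.0724% of members) and the second strand at 16 (0.0644%). Most values had 2 decimals, so that many medians fell on the boundary: 10 of the 34 lay at 0.1 within a tolerance of 1e-06, and 24 lay above it. Just outside the boundary were 27 CpGs from 0.09 to under 0.1, up to 0.0972. At a boundary of 0.05 there were 821 CpGs (3.3%), of which the first strand was higher at 459 and the second strand at 362. Of the 821, 390 lay at 0.05 within the same tolerance. No CpG reached 0.2.

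**Figure D1:**
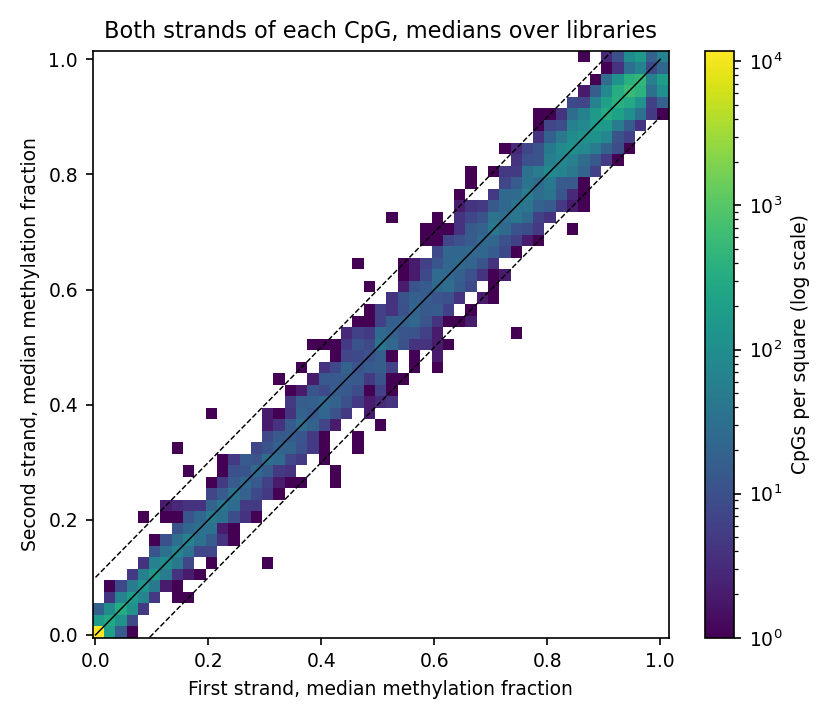
Median methylation fraction over 95 libraries on the first strand (x axis) and the second strand (y axis) at the 24854 CpGs, as counts per square of 0.02 by 0.02 on a log colour scale. The solid line marks equal medians and the dashed lines medians 0.1 apart. The CpGs gather along the solid line and at both ends of it. The 34 CpGs counted in the text rest on the median of the difference, which can differ from the difference of the medians.

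The distance between strands varied with the level, which also bounds it: strands that both lie near 0 or near 1 cannot lie far apart. At the 13695 CpGs with a level under 0.1 the median distance was 0, and 73.5% of the paired values in single libraries were equal. At the 3992 CpGs from 0.1 to 0.8 the median distance was 0.09, with quartiles of 0.07 and 0.1, and 4.5% of paired values were equal. At the 7167 CpGs over 0.8 it was 0.05, with quartiles of 0.04 and 0.06, and 13.1% were equal. In bins of 0.1 the median distance was greatest, at 0.1, for levels from 0.4 to 0.6. Fractions came without read counts, so the part of depth in this profile was not tested.

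Signed differences of at least 0.1 were found at 26 CpGs of the middle class (0.651% of 3992), at 8 of the high class (0.112% of 7167) and at none of the low class. At the 383 CpGs with a level of 0.4 to 0.5 there were 10, or 2.61%, and the first strand was higher at each of them. Of these 10, 6 came from a stretch of chromosome 14 and 1 from a stretch of chromosome 9, both described with the single CpGs. At a boundary of 0.05 the same bin held 47 CpGs with the first strand higher and 17 with the second strand higher. The neighbouring bin of 0.5 to 0.6 held 35 and 29.

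**Figure D2:**
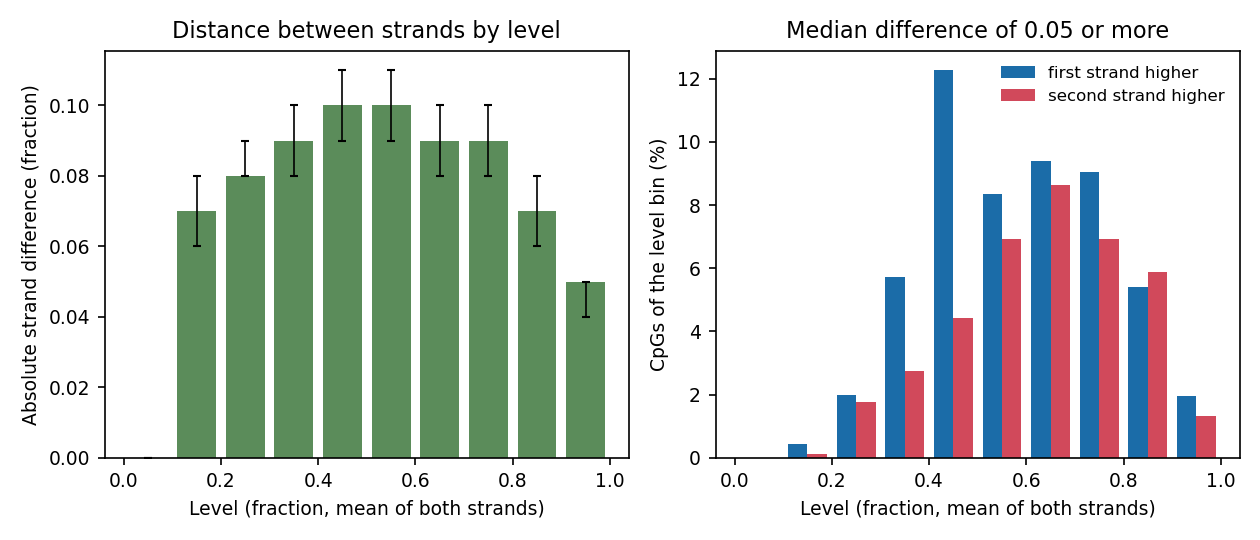
Left, the median over CpGs of the absolute strand difference (fraction) by level in bins of 0.1, with quartiles as error bars. Right, the percentage of CpGs in each level bin whose median difference was 0.05 or more, with the first strand higher (blue) or the second strand higher (red). The distance is 0 in the lowest bin and 0.1 from 0.4 to 0.6, and the bin of 0.4 to 0.5 has 47 CpGs of the first kind against 17 of the second. At least 9 of the 47 come from 1 stretch of chromosome 14.

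Density, counted as the main-table positions no more than 100 bp away with the CpG's own included, moved with the level, and the distance followed the level. Over all members the median distance was 0.06 at 1 to 3 positions (2681 CpGs, median level 0.87) and 0 at 32 to 85 positions (3403 CpGs, median level 0). Within the middle class it was 0.09 at 1 to 3 and at 4 to 7 positions, and 0.08 at 8 to 15, at 16 to 31 and at 32 to 85. The share of middle CpGs with a signed difference of at least 0.05 was 16.3%, 10.8%, 6.36%, 10.6% and 12.1% in the same order, so that it did not run in one direction with density. Among the 501 middle CpGs with 16 to 31 positions nearby, 10 reached 0.1 (2%, against 0.651% of the whole middle class). The first strand was higher at each of the 10. Of these, 6 form the chromosome 14 run and 3 lie at the start of the chromosome 9 stretch, both described with the single CpGs, and 1 lies elsewhere. At 1 to 3 positions the first strand was higher at 4 and the second strand at 2 (0.758% of 792). At 4 to 7 positions these counts were 1 and 5 (0.431% of 1391), and at 8 to 15 positions 1 and 2 (0.272% of 1101). At 32 to 85 positions they were 0 and 1 (0.483% of 207). At a boundary of 0.05 the first strand was higher at 62, 82, 39, 42 and 23 from the lowest density to the highest. The second strand was higher at 67, 68, 31, 11 and 2 in the same order. At any level and density, the chromosome 9 stretch held 35 CpGs that reached 0.05, and the start of the chromosome 14 stretch held 9. Counts by density without these stretches were not made.

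The 38 autosomes had similar median distances between strands. For middle CpGs the median distance was 0.08 to 0.09 on 37 chromosomes and 0.1 on chromosome 14. The share of middle CpGs with a signed difference of at least 0.05 varied more. It ran from 2.8% on chromosome 28 (4 of 143) to 20% on chromosome 29 (8 of 40), against 10.7% of the whole middle class. Chromosomes held from 109 members on chromosome 38 to 1556 on chromosome 9. At least 1 CpG with a signed difference of 0.1 was found on 19 chromosomes, and the other 19 had none. The share was highest on chromosome 33, at 2 of 181 CpGs (1.1%), followed by chromosome 38 with 1 of 109 (0.917%) and chromosome 14 with 6 of 867 (0.692%). The first and the second of these shares rest on 2 CpGs and 1 CpG. Chromosomes 9 and 14 together held 11 of the 34 CpGs (32.4%) and 9.75% of all members, and 10 of the 11 lay in a stretch of each. At a boundary of 0.05 they held 111 of 821 CpGs (13.5%).

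A rule that named CpGs with 1 direction in at least 90 of 95 libraries found none. The most libraries with the first strand higher at any CpG were 82, and the most with the second strand higher were 85. The 34 CpGs are described in its place and were chosen by their values. Their direction held in 65 to 85 libraries, with a median of 75.5. The ranges of the strands over libraries overlapped at each of the 34. Library codes start with 1 of 10 prefixes, and at 31 of the 34 CpGs the median difference had the same direction within each of the 10. The fewest prefixes with the same direction were 8, at a CpG on chromosome 22. None of the 34 had the pattern of a sequence variant, in which libraries gather near 0, 0.5 and 1. The pattern needs 8 or more libraries in each of these groups, so a variant carried by few animals would not meet it.

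The CpG with the greatest difference was on chromosome 9 at 10351136 to 10351137, as listed on the CanFam3.1 build. Its first strand had a median of 0.46, from 0.21 to 0.86 over the libraries, and its second strand a median of 0.65, from 0.17 to 1. The second strand was higher in 81 libraries and the first strand in 14, for a median difference of -0.19. Its neighbours did not share this. The member 5 bp before it had medians of 0.5 on the first strand and 0.5 on the second strand, and the member 7 bp after it had 0.43 on each. Their signed differences were -0.01 and -0.01. In the 7 repeat libraries the first strand had a median of 0.52, from 0.35 to 0.66, and the second strand a median of 0.75, from 0.41 to 0.9, for a median difference of -0.3. In the 2 repeat libraries that share no number with the main table it was -0.08.

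On chromosome 23 a pair of CpGs 31 bp apart was higher on the second strand. At 15136472 the first strand had a median of 0.15, from 0 to 0.42, and the second strand a median of 0.32, from 0.06 to 0.72. The second strand was higher in 85 libraries and the first strand in 8. At 15136441 the medians were 0.09 on the first strand and 0.21 on the second strand, with the second strand higher in 80 libraries. In the repeat table the medians were -0.11 and -0.14, against -0.17 and -0.12 in the main table. The mean of the pair was below 0 in only 4 of 7 repeat libraries, and in the 2 repeat libraries that share no number with the main table the differences were 0.005 and 0.15, with the first strand higher. The CpGs had levels of 0.225 and 0.165.

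The longest run of neighbouring members that all reached 0.1 with 1 sign held 6 CpGs over 99 bp of chromosome 14, from 20120150 to 20120248. The first strand was higher at each, with signed differences from 0.11 to 0.14. Averaged over the 6 CpGs, the first strand had a median of 0.503 over libraries and the second strand 0.372. The mean difference of the run ran from -0.295 to 0.419 over libraries, with a median of 0.122, and was above 0 in 82 and below 0 in 13. The medians of the 10 prefixes lay between 0.0558 and 0.177. In the repeat table it was above 0 in 7 of 7 libraries, with a median of 0.08. Within the run, the CpG at 20120157 had the greatest difference, with a median of 0.52 on the first strand, from 0.2 to 0.85, and 0.4 on the second strand, from 0.15 to 0.75. Counted at a boundary of 0.05, the run began earlier and held 9 CpGs, from 20120110.

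The difference did not extend along the whole stretch. From 20121522 to 20121970 lay 30 members with levels of 0.355 to 0.495. There the first strand was higher at 9, the second strand at 16, and 5 were at 0, with signed differences from -0.04 to 0.07. In the repeat table the same CpGs ran from -0.23 to 0.08 with a median of -0.075, farther to the second strand than the median of -0.00651 in the main table. The 5 members from 20122267 to 20122402 were at 0.02 to 0.08, with the first strand higher. Libraries whose codes hold A1, A3 or A4 had a median difference over the 6-CpG run of 0.111 (16 libraries), against 0.119 in the other libraries with an L prefix (68 libraries) and 0.152 in those with the SCE prefix (11 libraries). At the chromosome 9 CpG with the greatest difference, the medians of these libraries were -0.115, -0.19 and -0.3, and the first strand was higher in 5 of 16, 8 of 68 and 1 of 11.

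On chromosome 9 a dense stretch of 184 members from 10348621 to 10351693 also held differences of 1 sign in patches. Of these members the first strand was higher at 134, the second strand at 29, and 21 were at 0, with a median of 0.02. Near its start 3 CpGs reached 0.1. At 10348724 the first strand had a median of 0.42, from 0.24 to 0.68, and the second strand a median of 0.29, from 0.07 to 0.62, with the first strand higher in 82 libraries. At 10348748 the medians were 0.52 on the first strand and 0.4 on the second strand, and at 10348706 they were 0.4 on the first strand and 0.3 on the second strand. A later patch of 6 CpGs, from 10351277 to 10351315, reached 0.05 to 0.07 with the first strand higher. The repeat table did not follow this direction throughout, with the first strand higher at 94 of the 184 CpGs and the second strand at 74.

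**Figure D3:**
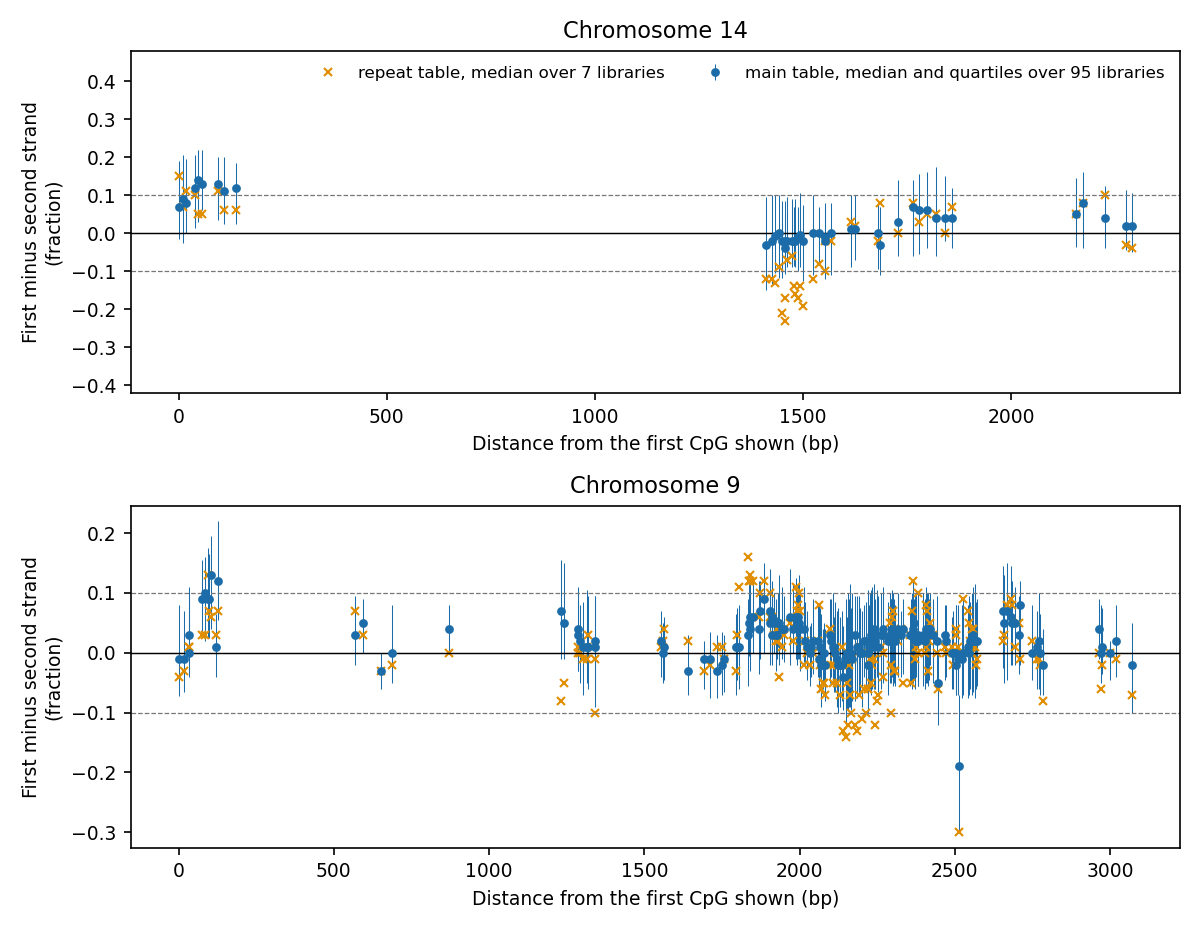
First minus second strand (fraction) along 44 members of chromosome 14 (top) and 184 members of chromosome 9 (bottom), against the distance in bp from the first CpG shown. Points are medians over the 95 libraries of the main table with quartiles as bars, crosses are medians over the 7 repeat libraries, and dashed lines mark 0.1 and -0.1. The first 9 CpGs of chromosome 14 lie at 0.07 to 0.14, and 1 CpG of chromosome 9 lies apart from its neighbours at -0.19.

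Neighbouring members tended to differ in the same direction. Among middle CpGs up to 50 bp apart, 789 neighbouring pairs had signed differences other than 0, and 79.8% of them had the same sign. Up to 10 bp apart it was 85.5% of 392 pairs, and up to 200 bp apart 77.1% of 876. Pairs within the chromosome 9 and chromosome 14 stretches are among these, and shares without them were not computed. Neighbours that both reached 0.1 within 50 bp numbered 6 pairs, each with 1 sign. Neighbours that both reached 0.05 within 50 bp numbered 83 pairs, again each with 1 sign, while 85 of 93 such pairs within 200 bp had the same sign. At a boundary of 0.05, 136 of the 821 CpGs (16.6%) stood in 51 runs of at least 2, and 6 runs held 5 or more. One molecule can cover several neighbouring CpGs, and the part this has in these shares was not tested.

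The strands of a CpG shared their typical level more closely than neighbouring CpGs on the same strand did, although at the shortest range they were no closer in a single library. This was measured at 619 pairs of middle members 2 to 10 bp apart. Between the strands of a CpG, the signed difference reached 0.1 at 0.808% of the 619. Between a CpG and the next on the first strand it reached 0.1 at 27.5%, and on the second strand at 27.9%. Within a library, the median distance between the strands of a CpG had a median of 0.08 over libraries, from 0.04 to 0.14. The distance to the next CpG on the first strand had a median of 0.07, from 0.05 to 0.1, and on the second strand it had the same 3 values. To the next CpG on the other strand it was 0.11, from 0.07 to 0.17. At 688 pairs 11 to 50 bp apart the medians were 0.09 between the strands of a CpG, against 0.12 to the next CpG on the first strand and 0.11 on the second strand.

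Over the libraries, values moved together along a strand more than across strands at short range. For the same 619 pairs the median correlation over 95 libraries was 0.303 between the strands of a CpG. It was 0.628 with the next CpG on the first strand, 0.638 with the next on the second strand, and 0.281 with the next CpG on the other strand. At 11 to 50 bp (688 pairs) these were 0.247, 0.43, 0.433 and 0.23. At 51 to 100 bp (109 pairs) the value for strands of a CpG was 0.263, against 0.214 and 0.233 along a strand and 0.139 to the other strand. The values are descriptions over CpGs that share libraries, and molecules that cover neighbouring CpGs of a strand at once add shared reading noise, whose part was not tested.

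Members at a level of 0.4 to 0.6 varied widely in single libraries. Over 822 such CpGs the range of the difference over libraries had a median of 0.87. The narrowest was at 78455022 on chromosome 5, from -0.25 to 0.17 with medians of 0.61 on the first strand and 0.6 on the second strand. Next came 2 CpGs of the chromosome 9 stretch, at 10350355 and 10351094, each with a range of 0.5.

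In the repeat table, directions recurred more often at CpGs with a greater difference in the main table. Of the 34 CpGs at 0.1 or more, 32 had the same direction in the repeat table, and 18 of these also reached 0.1 there. Of all members with a value in each of the 7 repeat libraries, 915 of 24768 reached 0.1 there (3.69%), with the first strand higher at 446 and the second strand at 469. Most members have a level under 0.1, whereas 26 of the 34 CpGs are of the middle class and 8 of the high class. For middle CpGs alone, 642 of 3979 (16.1%) reached 0.1 in the repeat table. Among CpGs at 0.07 to under 0.1 in the main table, 81.3% of 182 had the same direction and 11.5% the opposite. At 0.05 to under 0.07 it was 71% and 19.7% of 599, and at 0.005 to under 0.02 it was 50.2% and 34% of 2753. The exceptions among the 34 were on chromosome 9 at 44970193, with -0.11 in the main table against 0.02 in the repeat table, and on chromosome 26 at 6181930, with 0.1 against -0.04.

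Some repeat libraries share a number with a library of the main table, so the tables are not independent. The 2 repeat libraries of number 1 share it with none. Among the samples labelled for the repeat, the first-capture sample and the oldest second-capture sample share an age of 15.5 years. The highest age labelled for the main table is 14.5 years. The 2 libraries carry the same number and may come from 1 animal, perhaps this one, but no label ties a code to a sample. In these 2 the direction was the same at 26 of the 34 CpGs, opposite at 6 and 0 at 2. Among the 182 CpGs at 0.07 to under 0.1 it was the same at 75.8% and opposite at 22.5%. For the 5 shared numbers, the median distance between strands of middle CpGs was 0.07 to 0.11 in the repeat-table libraries, whose codes start with CHYB6, and 0.08 to 0.11 in the main-table libraries, whose codes hold Pilot. Between the libraries of a number, the same strand differed by a median of 0.07 to 0.1. The strand difference itself correlated between the libraries of a number with r from 0.0416 to 0.208 across CpGs, whereas the mean of both strands correlated with r from 0.881 to 0.944.

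**Figure D4:**
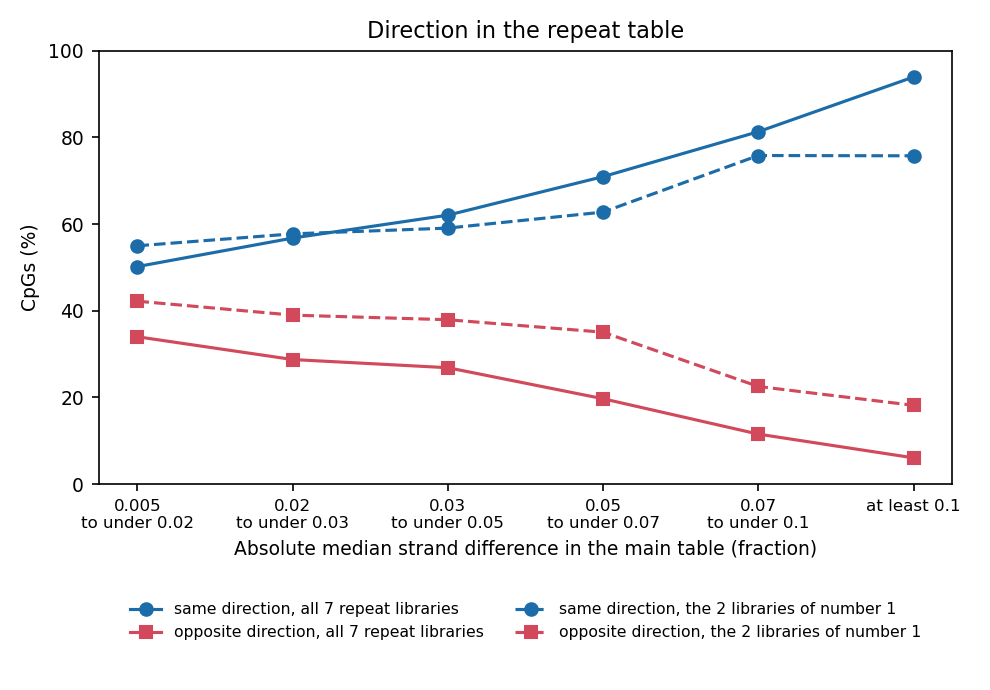
Percentage of CpGs whose median strand difference in the repeat table had the same (blue circles) or the opposite (red squares) direction as in the main table, by the absolute difference in the main table (fraction). Solid lines use 7 repeat libraries and dashed lines the 2 of number 1, and the remainder to 100% had a difference of 0. The same direction runs from 50.2% in the smallest class to 93.9% of the 33 CpGs at 0.1 or more that had a value in each of the 7 libraries.

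CpGs listed on both strands differed less between strands in the repeat table than CpGs listed on 1 strand or on none. At levels of 0.1 to 0.8 there, with a value in each library, the median distance was 0.09 for the members, 0.12 for CpGs listed on the first strand only, 0.12 for those on the second strand only and 0.15 for those not listed in the main table. A signed difference of at least 0.1 was found at 16.5% of 4071 members, against 27.4% of 15163, 27.6% of 14826 and 35.2% of 52496 in the same order. Values were empty on the first strand in 0.0287% and on the second strand in 0.031% of cells of the members. For CpGs listed on the first strand only, 0.0198% of first-strand and 1.66% of second-strand cells were empty, and for those listed on the second strand only, 1.78% of first-strand and 0.0158% of second-strand cells. The number of empty cells thus moved with the listing, and its part in the distance between strands was not tested. In the main table the members had a median density of 13 positions on either strand, against 7 for CpGs listed on the first strand only and 7 for those on the second strand only. The partner strand counts among the 13, and this density depends on which strands were listed. Counted in the repeat table, the order was reversed. The median density there was 18 positions for the members, 20 for CpGs listed on the first strand only, 20 for those on the second strand only and 30 for those not listed.

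At CpGs with a level under 0.1, the strands of a few paired values lay far apart. In 3.03% of the paired values the strands differed by 0.5 or more, against 0.534% at middle CpGs and 0.0529% at high CpGs. The first strand was the higher in 19762 of these 39449 pairs and the second strand in 19687. The higher value was exactly 1.0 in 99.9% of them. No main-table cell holds exactly 0.01, whereas 415967 cells hold 0.02. Where 0.01 was put in place of 1.0 at positions whose median was below 0.05, the share was 0.105%. Certain CpGs had such pairs repeatedly and mostly on 1 strand, although the median was at or near 0 on both. On chromosome 4 at 74864577, 27 libraries had the second strand at 1.0 and none the first. On chromosome 20 at 32849180 it was the first strand in 27 libraries and the second strand in 3. In all, 723 low CpGs had 8 or more such libraries. In 78 of them each such library had the same strand high, and in 149 at least 90% did, so that most of the 723 were not this one-sided. Whether these values of 1.0 are true fractions was not tested.

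Libraries differed in the distance between strands more than in its direction. Over middle CpGs, the median distance ran from 0.04 in the library coded L4_A12 to 0.138 in L7_A16, with a median of 0.09. The mean difference ran from -0.00798 in L7_A16 to 0.0103 in L3_A14, with a median of 0.00214, and was above 0 in 72 libraries and below 0 in 23. Over the 184 members of the chromosome 9 stretch, of any level, its median was 0.0241, above 0 in 73 libraries and below 0 in 21. Over the first 9 members of the chromosome 14 stretch its median was 0.118. How far these stretches carry the count of 72 was not tested. In L7_A16, 8.02% of member cells had more than 2 decimals and were taken as filled in, against a median of 0.0402% over libraries. Without such cells, the mean differences of libraries ran from -0.00776 to 0.0108. The median difference was -0.01 in L2_A18, 0.01 in 7 libraries, above 0 but at most 0.00339 in 3, and 0 in the others. Over all members, strands correlated across CpGs with a median r of 0.969, from 0.629 in L4_A7 to 0.981 in L3_A1. In L4_A7, L6_A27 and L8_A5, 24.7%, 22.4% and 22.1% of the low CpGs had strands 0.5 or more apart, against a median of 0.504% over libraries. With 0.01 in place of these 1.0, r ran from 0.96 to 0.99, and the highest share of low CpGs apart was 0.643%, in L6_A27. Over middle CpGs, r had a median of 0.864 and was highest in L8_A5, at 0.946. Without the 3 libraries 33 CpGs reached a signed difference of 0.1.

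**Figure D5:**
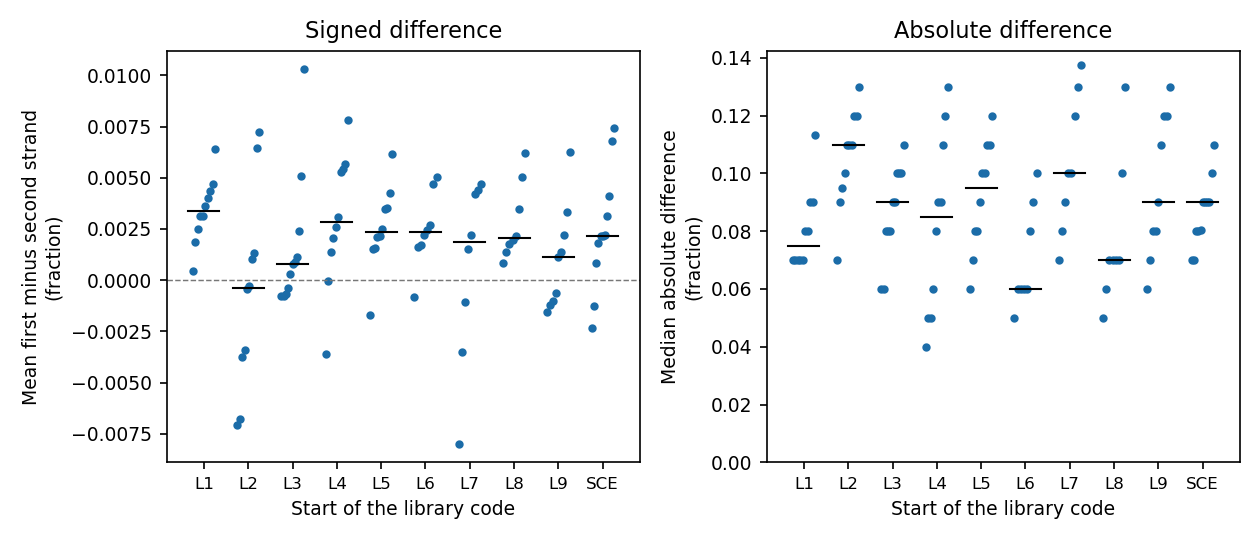
Mean first minus second strand (left, fraction) and median absolute difference between strands (right, fraction) over the 3992 CpGs with a level of 0.1 to 0.8, for each of 95 libraries by the start of the library code. Points are libraries, sorted within a code start, and bars are their medians. Mean differences lie between -0.00798 and 0.0103, and distances between 0.04 and 0.138.

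The pattern of a sequence variant was seen at 23 members, on both strands at 10, on the first strand only at 10 and on the second strand only at 3. The pattern required 8 or more libraries below 0.12, 8 or more from 0.3 to 0.7, and 8 or more above 0.88, leaving no more than 12 outside these ranges. At these CpGs the median distance between strands was 0.05, and no signed difference was beyond 0.04 in either direction.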

How the data were processed

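The authors deposited 2 tables with a methylation fraction for each library at each cytosine, without counts. Bowtie2 2.1.0, Bismark 0.14.3 and Trim Galore, and the build CanFam3.1, are named in the submitters' processing notes with no order. Of all member cells, 0.869% had more than 2 decimals and were taken as filled in. How they were filled in is not given in the sources used here. By library this share ran from 0 to 41.6%, the highest in L1_A7, with a median of 0.0402%. Depth and its precision are unknown. Coordinates are as listed, with an uncertainty of 1 bp from the start of counting. No genome or annotation of this build was used. Another table, mapped to human probes, was not analysed here.

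Members, level classes, alternatives and the rule for named CpGs (10 per direction with that direction in at least 90 libraries, the 3 narrowest ranges, the longest run with gaps up to 100 bp, and chromosomes and libraries at the extremes) were chosen with earlier results of these data known. Library codes matched no label, so libraries were described by medians and ranges, with no test. Medians were rounded to 9 decimals to clear floating-point residue, and values were called equal within 1e-09. The steps were tested on simulated data. Computation used Python 3.11.15, NumPy 2.4.6 and Matplotlib 3.10.9.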

Additional observations from a re-analysis of the deposited data

How the results depend on the processing

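Of 76 values computed under alternatives, 63 stayed within the spread between libraries or within 1.5 times the main count. With the mean over libraries, 124 CpGs reached 0.1 (first strand higher at 65, second strand at 59) and the median distance was 0.0572. Of the 124, 98 had a level under 0.1. With 1.0 set to 0.01 as well, 29 reached 0.1, of which 3 were low. The boundary of 0.05 gave 821 CpGs (459 and 362) and that of 0.2 gave 0 (0 and 0), as wider and narrower boundaries do. In the middle class alone the share past 0.1 was 3.39% on chromosome 14 and 5.88% on chromosome 33, over fewer CpGs. Neighbours within 10 bp that both reached 0.1 were 2 pairs. The libraries left out together and the count above 0.1 were alternatives chosen after seeing the data. No paired analysis was possible because no groups of samples were compared in a fit that could hold a replicate block. Each strand difference is itself taken within a library. Unknown depth limits each single value.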
